A study of Mus musculus with 4 samples.

Results

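Ly6d and 7 other genes of the LY6 family, Ly6a, Ly6e, Ly6c1, Ly6c2, Ly6k, Ly6h and Ly6i, were examined in nascent RNA of double positive (DP) thymocytes with and without Tox4. The 8 genes were taken by name from a table of 24984 genes. They were selected on the fold change of Ly6d, one of the deepest falls between the genotypes compared here, so the values of Ly6d describe that choice and no test of them is given. The question was whether the fall of Ly6d was shared by its family neighbours on chromosome 15. The libraries were TTchem-seq libraries, which capture RNA made during a pulse of 4-thiouridine, so that fragments over a gene, introns included, are meant to measure its transcriptional output. The study's methods describe rRNA depletion of labelled RNA while the sample labels describe capture of polyadenylated RNA, and which was used is not settled, so "output" below stands for fragments counted over the gene. Thymocytes of the CD4 and CD8 double positive stage came from mice with floxed Tox4 alleles without Cre (Tox4;F/F, called WT) and from mice with the same alleles and Cre (Tox4;F/F;Lck+, called cKO), with 2 libraries of each genotype. Cre was driven by the proximal promoter of Lck, which is active in thymocytes before the DP stage, the floxed allele was made in C57BL/6 eggs, and the study used littermates as controls. Because only cKO mice carried Cre, an effect of Cre and an effect of Tox4 deletion cannot be told apart.

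LY6 proteins are small surface proteins that share a three-finger fold held by disulfide bonds, and most are tied to the membrane by a glycosylphosphatidylinositol (GPI) anchor. Many of their genes lie side by side in one cluster on mouse chromosome 15, and several are used to sort blood cells: Ly6a encodes Sca-1 of stem and progenitor cells, and Ly6c1 and Ly6c2 encode the Ly6C antigens of monocytes and some T cells. Ly6d, first known as the ThB antigen of thymocytes and B cells, marks lymphoid progenitors that are set towards the B lineage. Ly6e, also known as thymic shared antigen 1, is carried by immature thymocytes and is induced by interferon.

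The libraries held between 38429786 and 48690591 fragments, and 3 fragments corresponded to 0.0616 to 0.0781 CPM, the usual scaling of a gene's count by the total of its library. Tox4 itself had 74.0 and 70.3 CPM in WT against 59.3 and 57.2 CPM in cKO, a log2 difference of -0.31 (SE 0.10, adjusted p = 0.0453 by DESeq2 and 0.122 by edgeR). This is a check of the genotype in part, since the count covers the whole gene and Cre removes a floxed stretch of it. A gene was called changed at a DESeq2 adjusted p under 0.05 and a fold of 1.2 or more, given a mean of 1 CPM or more, and 431 of 11625 genes with that level were called (3.71%), of which 182 decreased (1.57%) and 249 increased (2.14%). Both cKO libraries lay below both WT libraries in 24.0% of the 11625 genes and above both in 24.9%. The labels do not say which mice gave which library, so p-values measure the spread between these libraries, and in such bulk samples fewer cells of a type and less RNA per cell cannot be told apart. Xist, which is transcribed from the inactive X chromosome of female cells, had 172 CPM in one library, WT replicate 1. It had 2.36 CPM in WT replicate 2 and 1.09 and 0 CPM in the cKO libraries. Sex may thus differ between the libraries, although the study's methods state gender-matched littermates, and an effect of sex was not tested.

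Ly6d was the member that stood apart. Ly6d spans 1512 bp on the minus strand of chromosome 15 (GRCm38, 74762056 to 74763567), has 3 exons, and overlaps no other annotated gene. WT replicates 1 and 2 gave 1139 and 1453 Ly6d fragments, and cKO replicates 1 and 2 gave 370 and 350. Scaled to depth these were 26.7 and 29.8 CPM in WT and 9.63 and 8.8 CPM in cKO. The 2 genotypes did not overlap, with both cKO libraries below both WT libraries as in 24.0% of the 11625 genes. Within a genotype the libraries lay close together (28.3 ± 2.21 CPM in WT and 9.22 ± 0.584 CPM in cKO, mean ± SD, n = 2). The log2 fold change was -1.62 (SE 0.16), that is, 3.08-fold less Ly6d output in cKO, and 5 of the 11625 genes had a lower value. Without WT replicate 1, the library with high Xist, the log2 fold change of Ly6d was -1.71. None of the 1482 windows of 31 bases in the Ly6d span occurs elsewhere on the chromosomes of GRCm38, so reads of that length have one place to map.

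Ly6e was the only other member with a mean of at least 1 CPM, and its output did not follow that of Ly6d. Ly6e lies 191 kb from Ly6d on the plus strand (74955051 to 74959905). WT libraries held 242 and 311 CPM of Ly6e, and cKO libraries held 301 and 287 CPM. Both cKO values lay between the WT values, and the log2 fold change was 0.09 (SE 0.11). Per kb of gene, Ly6e was the most transcribed member in both genotypes, at 56.9 ± 10.1 CPM per kb in WT and 60.6 ± 2.02 in cKO (SD, n = 2), against 18.7 ± 1.46 and 6.09 ± 0.386 CPM per kb for Ly6d. The log2 fold change of Ly6d minus that of Ly6e was -1.71, and it ranged from -1.82 to -1.62 when each library was left out in turn.

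**Figure D1:**
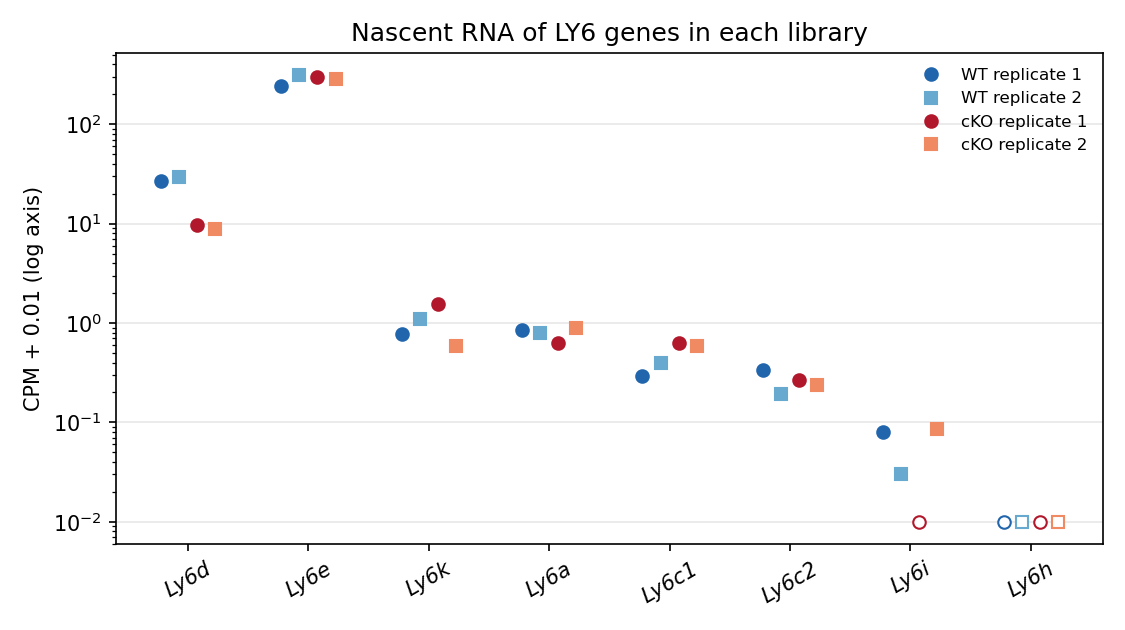
Nascent RNA of the 8 LY6 genes as CPM + 0.01 on a log axis, with circles for replicate 1 and squares for replicate 2 of WT (blue) and cKO (red and orange), and open symbols for a count of 0. Ly6d is at 26.7 and 29.8 CPM in WT and at 9.63 and 8.8 CPM in cKO, Ly6e is above 200 CPM in all 4 libraries, and the other 6 genes are below 2 CPM.

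The remaining 6 members were barely transcribed in these cells, and no direction could be read for them. Ly6k, whose protein acts in sperm, was at 0.774 and 1.08 CPM in WT and at 1.54 and 0.578 CPM in cKO. The cKO libraries lay on both sides of the WT libraries, with a log2 fold change of 0.19 (SE 0.68) that was -0.67 without cKO replicate 1. Ly6a (Sca-1) was at 0.845 and 0.78 CPM in WT and at 0.625 and 0.88 CPM in cKO, a log2 fold change of -0.11 (SE 0.69). The gene Gm28068 on the other strand overlaps Ly6a and Ly6i, so that counts there could hold reads of either strand if strand was not used in counting.

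Ly6c1 had 12 and 19 fragments in WT and 24 and 23 in cKO, a log2 fold change of 0.83 with an SE of 0.89. The 2 cKO values were above the 2 WT values, as in 24.9% of the genes with a mean of at least 1 CPM, a level that Ly6c1 did not reach, and it was not called. Ly6c2, its close copy, had 14 and 9 fragments in WT and 10 and 9 in cKO, a log2 fold change of -0.08 (SE 1.21). These 2 genes are hard to separate by short reads, since 55.6% of the 31-base windows of Ly6c1 and 56.7% of those of Ly6c2 occur more than once in the genome, against 27.3% for Ly6a, 18.7% for Ly6i, 4.37% for Ly6k and 2.11% for Ly6e. Ly6i had 3 and 1 fragments in WT and 0 and 3 in cKO, too few for a fold change. Ly6h, known from brain, had 0 fragments in every library, which allows up to 0.0704 and 0.0616 CPM in the WT libraries and 0.0781 and 0.0755 CPM in the cKO libraries, counting error only. Per kb of gene, WT levels ran from Ly6e and Ly6d down to Ly6k (0.299 ± 0.0695 CPM per kb, SD, n = 2), Ly6a (0.258 ± 0.0144), Ly6c1 (0.0697 ± 0.0159), Ly6c2 (0.0673 ± 0.0266) and Ly6i (0.0117 ± 0.00904). Ly6k and Ly6a, and likewise Ly6c1 and Ly6c2, did not differ beyond their spread. In all, 2 of the 8 members reached a mean of 1 CPM and 6 reached 0.1 CPM.

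The ratio of Ly6d to Ly6e within a library does not depend on how libraries are scaled. Ly6d fragments were 11.1% and 9.6% of Ly6e fragments in WT and 3.2% and 3.06% in cKO. Set against Cd4, a coreceptor gene that defines the DP stage, Ly6d was at 4.3% and 4.17% in WT and at 1.4% and 1.27% in cKO. Both ratios use the Ly6d counts on which the genes were selected, and they describe the same fall.

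**Figure D2:**
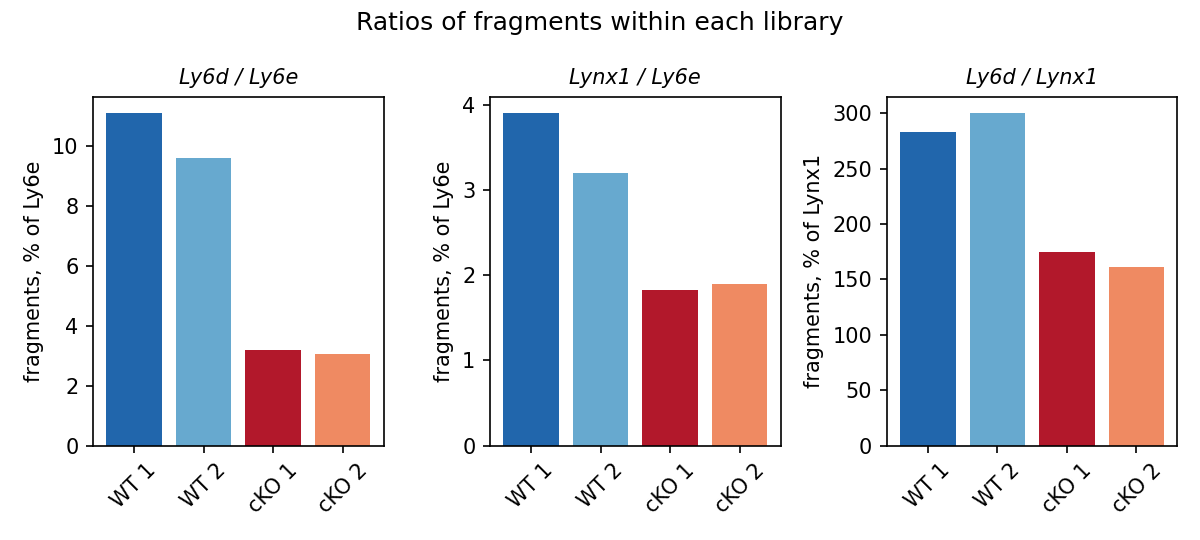
Fragments of one gene as a percent of those of another within each of the 4 libraries, as bars from 0, for Ly6d over Ly6e, Lynx1 over Ly6e and Ly6d over Lynx1. Ly6d is 11.1% and 9.6% of Ly6e in WT and 3.2% and 3.06% in cKO, and Ly6d over Lynx1 falls from 283% and 300% to 175% and 161%.

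The nearest gene downstream of Ly6d was also lower in cKO. Lynx1, whose product is a GPI-anchored modulator of nicotinic acetylcholine receptors and itself a LY6 family protein, lies 9.08 kb downstream on the same strand (74747856 to 74752979). It was not among the 8 listed genes. Its 403 and 484 fragments in WT made 9.45 and 9.94 CPM, and its 212 and 217 fragments in cKO made 5.52 and 5.46 CPM. Both cKO libraries lay below both WT libraries, as in 24.0% of the 11625 genes. Lynx1 differed by -0.82 on the log2 scale (SE 0.23, DESeq2 adjusted p = 0.0134). No 31-base window of Lynx1 occurs elsewhere in the genome.

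The call of Lynx1 depended on the test and was lost in every fit on 3 libraries, while its direction was kept. The edgeR adjusted p was 0.0828 and that of limma voom was 0.0891, both fitted on the 11625 genes. When WT replicate 1, WT replicate 2, cKO replicate 1 or cKO replicate 2 was left out, the DESeq2 adjusted p was 0.342, 0.326, 0.394 and 0.49, and the log2 fold change stayed between -0.87 and -0.78. These fits have 1 library in one genotype, which is assumed to vary like the others, so the lost calls do not single out a library. With edgeR fitted on all 24984 rows the adjusted p was 6.6e-04, and with limma voom on all rows it was 0.26. The change of Lynx1 was smaller than that of Ly6d: Ly6d fragments were 283% and 300% of Lynx1 fragments in WT and 175% and 161% in cKO. The difference between the genes was not tested.

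The other neighbours of Ly6d were not called. Slurp2, which encodes a secreted LY6 protein of epithelia, lies 15.4 kb downstream of Ly6d on the same strand. It was at 2.06 and 2.14 CPM in WT and at 1.77 and 1.13 CPM in cKO, with a log2 fold change of -0.54 (SE 0.48), an adjusted p that DESeq2 set to NA and an edgeR adjusted p of 0.463. Without cKO replicate 1 its log2 fold change was -0.89, and without cKO replicate 2 it was -0.25. On the other side, 7.34 kb upstream and again on the same strand, Ly6g6g had 34 and 31.5 fragments in WT and 0 and 5 in cKO. This gene was singled out after its values were seen, and its mean of 0.39 CPM was under the level needed for a call. The next member upstream, Ly6k at 33.3 kb, showed no separation of the genotypes.

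Further out, Them6 at 37.7 kb downstream was at 14.1 and 19.8 CPM in WT and at 18.6 and 16.8 CPM in cKO, with a log2 fold change of 0.06 (SE 0.19). Jrk at 52.7 kb had a log2 fold change of -0.09 (SE 0.20). Arc, the immediate early gene at 89.5 kb, was at 24.8 and 34.0 CPM in WT and at 24.3 and 20.7 CPM in cKO, a log2 difference of -0.39 (SE 0.17, DESeq2 adjusted p = 0.232). The nearest gene upstream of Ly6d with a mean of at least 1 CPM was Ly6e. Members apart, 31 genes lie within 1 Mb of Ly6d, and 8 of them reached a mean of 1 CPM. Lynx1 was the 1 called, as decreased, against 1.57% of the 11625 genes called decreased. Of these 8 genes, 6 had a negative and 2 a positive log2 fold change, with a median of -0.24 against 0.00 over the 11625 genes. In 5 of the 8, both cKO libraries lay below both WT libraries, against 24.0% of the 11625 genes. At that background rate, some genes far from Ly6d would show the same order of libraries by themselves. Whether the order depends on the distance to Ly6d was not tested. Top1mt, 893 kb upstream, was at 1.83 and 1.15 CPM in WT and at 0.598 and 0.78 CPM in cKO, a log2 fold change of -1.11 (SE 0.61) with a DESeq2 adjusted p of NA. Zfp41, 853 kb upstream, had a log2 fold change of 0.56 (SE 0.29).

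**Figure D3:**
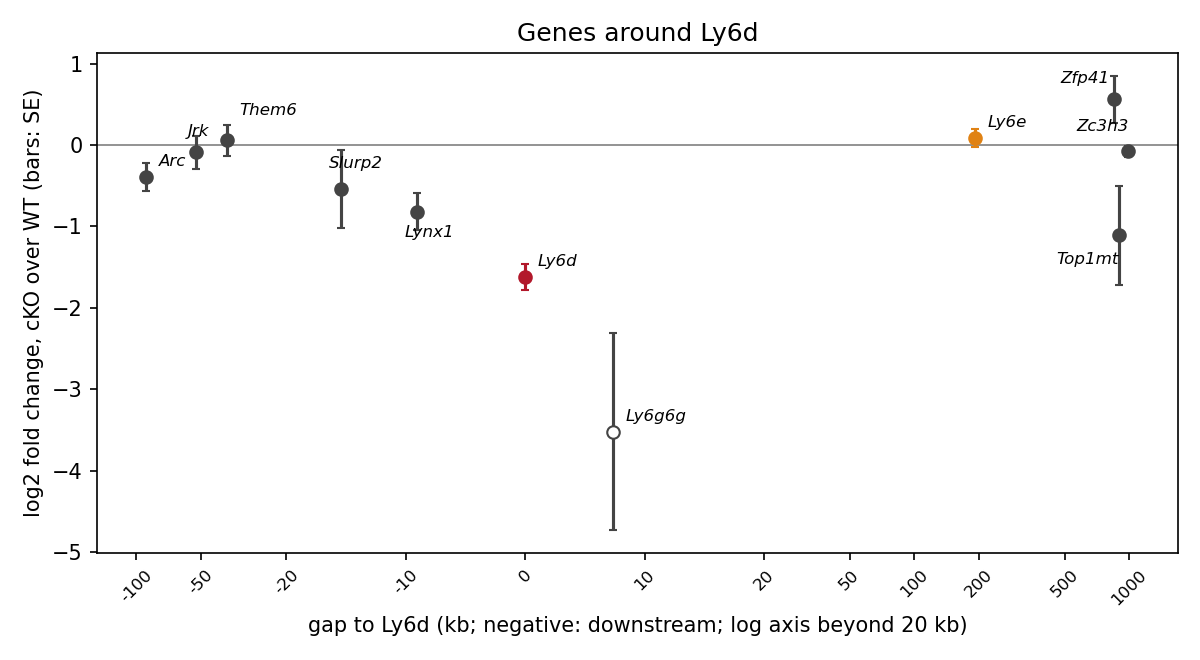
Log2 fold change (cKO over WT, bars show SE) against the gap to Ly6d in kb, negative for downstream, on an axis that is logarithmic beyond 20 kb; the open symbol is Ly6g6g, which lay under 1 CPM. Ly6d is at -1.62, Lynx1 at -0.82 and Slurp2 at -0.54, while Them6 at 0.06 and Ly6e at 0.09 lie at 0 within their SE.

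**Figure D4:**
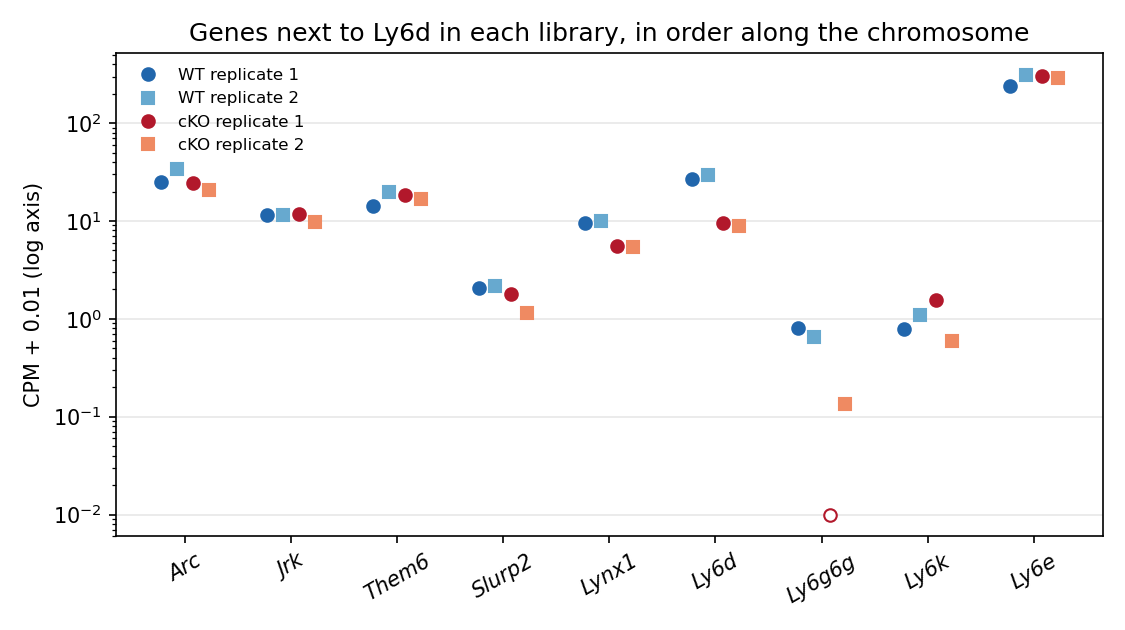
CPM + 0.01 on a log axis for Ly6d and 8 genes near it in chromosome order, with circles for replicate 1 and squares for replicate 2 of WT (blue) and cKO (red and orange), and an open symbol for a count of 0. The widest gaps between genotypes are at Ly6d, at Lynx1 (9.45 and 9.94 against 5.52 and 5.46 CPM) and, at few counts, at Ly6g6g, and the genotypes mix at Them6, Ly6k and Ly6e.

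Few of the other LY6/uPAR genes were transcribed. Of 34 genes of this superfamily beyond the 8 members, some in the same cluster and some on other chromosomes, 12 had no fragment in any library and 5 reached a mean of 1 CPM. Lynx1 was called decreased and the other 4 were not called, where 1.57% of the 11625 genes were called decreased. The median log2 fold change of the 5 was -0.41. Lypd6b, on chromosome 2, was the most counted, at 53.0 and 53.4 CPM in WT and at 60.2 and 53.7 CPM in cKO, a log2 difference of 0.10 (SE 0.11, DESeq2 adjusted p = 0.797). Plaur, which encodes the urokinase receptor, was at 4.93 and 2.44 CPM in WT and at 2.71 and 2.84 CPM in cKO, a log2 difference of -0.41 (SE 0.40, DESeq2 adjusted p = 0.753). Ly6g5b was at 2.06 and 2.63 CPM in WT and at 2.78 and 2.79 CPM in cKO, a log2 difference of 0.24 (SE 0.39, DESeq2 adjusted p = 0.866). The 5th was Slurp2.

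**Figure D5:**
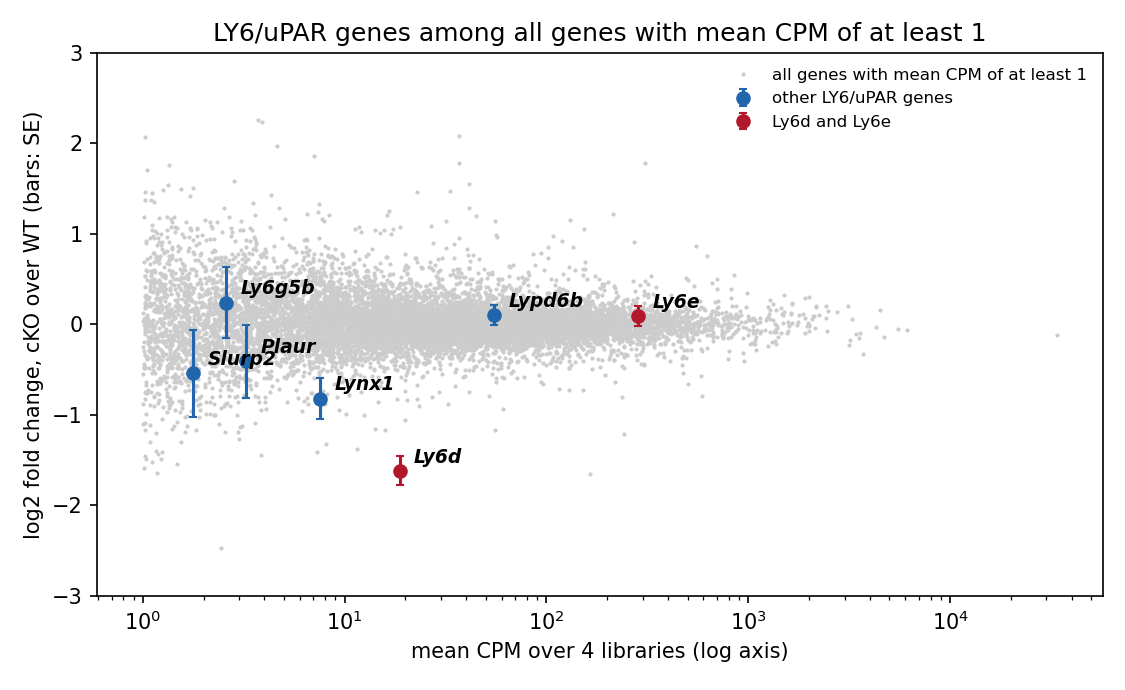
Log2 fold change (cKO over WT) against mean CPM over 4 libraries on a log axis for all genes at or above a mean of 1 CPM (grey), with the LY6/uPAR genes among them marked and their SE as bars; 2 genes lie outside the plotted range. Ly6d at -1.62 lies at the lower edge of the grey points of its level, Lynx1 at -0.82 lies above it, and Ly6e and Lypd6b lie at 0.09 and 0.10.

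The enzymes that build the anchor of LY6 proteins showed no change that passed the test. Of 30 genes of GPI anchor biosynthesis and remodelling, 29 reached a mean of 1 CPM and 0 were called by DESeq2 or edgeR. DESeq2 called 3.71% of the 11625 genes, so few calls are due in a list of this length. At an unadjusted p under 0.05 none was higher and 1, Mpdu1, was lower. Their median log2 fold change was -0.01, and their summed output was 621 and 630 CPM in WT and 622 and 627 CPM in cKO. Pigu and Pign, the most counted, had log2 fold changes of 0.11 (SE 0.10) and 0.01 (SE 0.10).

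Among 13 measured genes of other GPI-anchored surface proteins, 1 was called and 12 were not, against 3.71% called over the 11625 genes. Gfra1, a co-receptor for GDNF, rose from 36.2 and 40.4 CPM in WT to 74.9 and 74.9 CPM in cKO, a log2 difference of 0.97 (SE 0.11, DESeq2 adjusted p = 1.26e-15, edgeR adjusted p = 0.00908). Thy1, the classical GPI-anchored antigen of thymocytes, was at 152 and 202 CPM in WT and at 219 and 174 CPM in cKO. Sema7a was at 215 and 241 CPM in WT and at 242 and 221 CPM in cKO.

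Several LY6 genes respond to interferon, and interferon-stimulated genes were therefore counted as a group. Of 30 measured, 0 were called by DESeq2 or edgeR, and their median log2 fold change was 0.05. With 3.71% of the 11625 genes called by DESeq2, a count of 0 in so short a list says little. At an unadjusted p under 0.05, Usp18 was higher and Igtp and Ifi35 were lower. Igtp was at 80.6 and 71.0 CPM in WT and at 63.2 and 61.4 CPM in cKO (DESeq2 adjusted p = 0.105).

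Since Ly6d is also carried by B lineage cells and by a part of the plasmacytoid dendritic lineage, markers of other cell types were counted. B cell markers summed to 24.1 and 19.3 CPM in WT and to 26.0 and 24.0 CPM in cKO, mostly from Blnk and Ebf1. Plasmacytoid dendritic markers summed to 919 and 973 CPM in WT and to 1020 and 990 CPM in cKO, carried by Ccr9 and Tcf4, which thymocytes express too. Siglech, the most selective of them, was at 2.37 and 1.21 CPM in WT and at 0.416 and 0.729 CPM in cKO, a log2 fold change of -1.64 (SE 0.63) with a DESeq2 adjusted p of NA and an edgeR adjusted p of 0.176. Of the 8 measured plasmacytoid dendritic markers, 3 had both cKO libraries below both WT libraries, against 24.0% of all genes at that level, among them Pacsin1 at 26.4 and 25.4 against 19.8 and 18.4 CPM (DESeq2 adjusted p = 0.0501), and 1 had both above.

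Myeloid markers summed to 4.4 and 4.0 CPM in WT and to 2.59 and 3.85 CPM in cKO, with Lyz2 at 1.34 and 1.21 CPM in WT and at 0.312 and 0.679 CPM in cKO. Itgam, the 1 myeloid marker with a mean of at least 1 CPM, went the other way, at 1.06 and 1.07 CPM in WT and at 1.51 and 1.53 CPM in cKO (log2 fold change 0.52, SE 0.54). Erythroid markers summed to at most 0.729 CPM. Thymic epithelial markers summed to 12.2 and 17.6 CPM in WT and to 9.02 and 6.38 CPM in cKO, nearly all from Cldn4, which fell from 11.0 and 16.2 to 8.17 and 5.58 CPM (log2 fold change -0.99, SE 0.26, DESeq2 adjusted p = 0.00535, edgeR adjusted p = 0.138). Krt14 and Psmb11, which define cortical or medullary epithelium, were at 0 in every library. The part of the plasmacytoid dendritic, myeloid and epithelial markers in the fall of Ly6d was not tested.

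The markers of the labelled cells were present. DP markers summed to 13500 and 14800 CPM in WT and to 14600 and 13100 CPM in cKO. Of the 15, 3 were called decreased by DESeq2 and 0 by edgeR: Cd8a (log2 fold change -0.54), Rag1 (-0.31) and Tcf7 (-0.33). Rag1 lay at the threshold (DESeq2 adjusted p = 0.0499, edgeR adjusted p = 0.254). Beside these and the next counts, DESeq2 called 1.57% of the 11625 genes decreased and 2.14% increased. Of 10 markers of mature single positive cells, DESeq2 called 3 increased, among them Il7r (0.36) and Runx3 (0.42), and 1, Ccr7 (-0.34), decreased, and edgeR called 0. Of 8 measured markers of double negative cells, Notch1 (0.47) and Notch3 (1.28) were called increased by DESeq2 and by edgeR. Changes in the mix of thymocyte stages were not measured here, and their part in the fall of Ly6d was not tested.

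Among the 5 genes whose profile over the 4 libraries came nearest to that of Ly6d, by root mean square distance of centred log2(CPM + 0.5), were Esrp2 (0.244), 4930481A15Rik (0.277), Eci1 (0.305) and Abca1 (0.335). The median distance over genes with a mean of at least 1 CPM was 0.793, that of Ly6e was 0.838, and Lynx1 at 0.402 ranked 25. Esrp2, a regulator of splicing in epithelia, was at 12.2 and 10.8 CPM in WT and at 5.57 and 3.65 CPM in cKO. Abca1, a cholesterol exporter, was at 405 and 271 CPM in WT and at 141 and 152 CPM in cKO. With 4 libraries in 2 groups, this distance mostly ranks genes by how near their fall was to that of Ly6d.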

How the data were processed

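TTchem-seq libraries of DP thymocytes of WT and cKO mice, 2 libraries of each genotype, were grouped by sample title. Per the study's methods and the submitters' processing notes, the authors filtered reads with fastp (0.13.1) and aligned them with STAR (2.7.9a) to GRCm38 (mm10), and the methods take the counts from STAR, which counts whole reads over exons, while the notes also name featureCounts (1.6.1). The deposited table holds expected counts, fragments per gene over whole gene spans, of which 8.61% were fractional, so they did not come from the STAR counts as described. How fractions were assigned, whether strand was used and whether duplicates were removed is not given in the sources used here. No molecular identifiers are described, so intervals and floors cover counting error only. The deposited gene length, in bp, is another column and was used for CPM per kb. Yeast spike-in was added, the table holds 0 rows of yeast, and libraries were not scaled by it.

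Expected counts were rounded to whole numbers and tested with the DESeq2 (1.42.0) Wald test of cKO against WT over all genes. The fit used the default size factors and no shrinkage of fold changes. The study's methods name DESeq2 and the call thresholds for this assay, but not these settings. CPM were computed here from library totals. edgeR (4.0.16, quasi-likelihood) and limma (3.58.1, voom) were alternatives, with R 4.3.3, Python 3.11.15, pandas 2.3.3, numpy 2.4.6 and matplotlib 3.10.9. The DESeq2 step was also run on counts simulated with known fold changes, and the outcome is not given here. Annotation and the count of repeated 31-base windows used RefSeq GRCm38.p6. WT and cKO libraries with the same replicate number did not deviate together (r = -0.03 over 11625 genes), so the numbers were not used to pair them.

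The members, gene lists and tests were chosen with earlier results of these data known. Genes named are the 8 members, Tox4, LY6/uPAR genes at a mean of 1 CPM or more, called genes and nearest expressed genes within 1 Mb of Ly6d, of other lists mainly the called and the most counted genes, and the 5 nearest profiles. Genes named beyond these (Ly6g6g, Them6, Jrk, Top1mt, Zfp41, Siglech, Pacsin1, Lyz2, Krt14, Psmb11, Mpdu1, Usp18, Ifi35 and Xist) were picked after their values were seen. Some genes that the rule takes are not reported here. Promoter or protein sequences are not printed.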

Additional observations from a re-analysis of the deposited data

How the results depend on the processing

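The log2 fold change of Ly6d was -1.62 under edgeR, limma voom, scaling by TMM or by totals, and the replicate block, and -1.71 to -1.53 with each library left out, and the difference from Ly6e also kept its sign. The count of decreased LY6/uPAR genes and that of decreased genes within 1 Mb of Ly6d, both 1 (Lynx1), became 0 under edgeR, limma voom, the paired fit with a replicate block (Lynx1 adjusted p = 0.182) and with each library left out (0 to 0). They stayed at 1 with TMM or total count factors. Over all genes, increased and decreased calls were 249 and 182 in DESeq2, 59 and 17 in edgeR, 57 and 16 in limma voom, 121 and 72 with the replicate block, 106 and 44 at a fold of at least 1.5, and 61 to 320 and 28 to 126 with each library left out. The filter of the edgeR and limma voom fits was chosen after fits on all rows were also seen. Those gave 458 and 319 calls in edgeR, with Lynx1 called and 1 increased interferon-stimulated gene (Usp18), and 0 and 0 in limma voom, where both Lynx1 counts were 0. The cause of these differences was not tested. With 2 libraries a group, Ly6k, Ly6a, Ly6c1 and Ly6c2 have SE of 0.68 to 1.21, and Ly6i and Ly6h had next to no or no fragments, so changes of the size seen for Ly6d were not reliably detectable there.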
